A study of Mus musculus with 32 samples.

Results

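The 33 genes described here encode the enzymes of glycolysis and the genes that set what becomes of its end product, pyruvate. They were chosen by name, as the rows of the deposited table with 1 of 33 symbols, and all 33 had a row among the 54233 rows. All 33 also passed the filter on low counts, with 15227 rows in all that did. They cover the hexokinases and entry steps (*Hk1*, *Hk2*, *Galm*, *Gpi1*), the phosphofructokinases (*Pfkl*, *Pfkm*, *Pfkp*) and the enzymes that make and remove their activator (*Pfkfb1* to *Pfkfb4*). They also cover the later steps (*Aldoa*, *Aldoc*, *Tpi1*, *Gapdh*, *Pgk1*, *Bpgm*, *Pgam1*, *Eno1*, *Eno2*, *Eno3*, *Pkm*), lactate dehydrogenase (*Ldha*, *Ldhb*), and pyruvate dehydrogenase with its kinases (*Pdha1*, *Pdhb*, *Dlat*, *Pdk1* to *Pdk4*). *G6pdx* and *Pgd* belong to the pentose phosphate branch.

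RNA-seq was done on KH2 mES cells at 8 time points (0, 2, 4, 8, 16, 24, 48 and 96 h), with 4 replicates each and 32 samples in all. Every sample carries a single-copy transgene in which a bidirectional TET-responsive element drives GATA6-FLAG and DsRed2 once Dox is added. The 0 h cells were in 2i medium, which holds an inhibitor of MEK (PD0325901), an inhibitor of GSK3 (CHIR) and LIF. From 2 h on the cells were in serum medium with LIF and sodium pyruvate, with 1 µg/ml Dox for up to 12 h and without it afterwards. Dox, serum and the loss of the inhibitors therefore cannot be told apart in any comparison with 0 h, whereas 2 h and 96 h are both in serum. The cells were a single line and were not sorted, so in these bulk samples fewer cells of a type and less RNA per cell cannot be told apart. The study describes its replicates as independent experiments, without saying whether each was a separate culture at each time point, so the p-values measure the spread between these samples.

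The samples held 3190108 to 12301732 reads on genes (median 8870662.5). Levels below are normalized counts, that is reads scaled by the size factors that the authors computed. In the data, though not in the labels, the replicates fell into a set of replicates 1 and 2 and a set of replicates 3 and 4, so within-set values are given beside many of the pooled ones. A gene is called here from a fit that has no term for the sets. The summed level of 7 mES cell markers, among them *Pou5f1* and *Nanog*, had a median of 37974 at 0 h, 8814 at 48 h and 2991 at 96 h. That of 10 primitive endoderm (PrE) markers went from 841 to 181020.0 and 252403, with *Gata6* at a mean of 0.371 at 0 h and 2067 at 96 h. The labelled cell types thus had their markers. The mES cell sum was lower at each later time point and the PrE sum higher from 4 h on, so both move with the differences from 0 h below, and their part in the results was not tested. Feeder fibroblast markers summed to at most 34 in any sample, and *Col3a1*, *Dcn* and *Lum* were at 3 reads or fewer in all 32. Trophoblast markers summed to 59.5 to 602, and apoptosis and stress genes to 261 to 1253.

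Glycolysis splits glucose into pyruvate and yields ATP without oxygen. Hexokinase traps glucose in the cell, phosphofructokinase commits it to the pathway, and the later enzymes recover the energy. Pyruvate is then either reduced to lactate by lactate dehydrogenase or carried into mitochondria, where the pyruvate dehydrogenase complex turns it into acetyl-CoA, unless a pyruvate dehydrogenase kinase has switched that complex off. Most steps are served by several paralogues with different kinetics and tissue distribution. Pluripotent stem cells are known for high glycolytic flux.

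Several of these genes have many processed pseudogenes, which bears on what a read can say. Reads were 50 bases long, and how reads that match several places were counted is not given in the sources used here. Of the distinct 50-base stretches in the coding transcripts of *Pgk1*, 68% occurred in transcripts of another gene, as did 58.4% in *Gapdh*, 49.5% in *Eno1* and 41.5% in *Pgam1*. Within the coding sequence itself, 968 of 1028 stretches of *Gapdh* and 1202 of 1202 of *Pgk1* were shared, whereas none of 2291 of *Pfkl* was. The most shared stretch of *Gapdh* is printed because a read from it cannot be placed by sequence. It spans coding bases 493 to 542 and occurred in 84 other genes.
Gapdh: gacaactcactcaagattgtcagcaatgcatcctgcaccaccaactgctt

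In all, 9 of the 33 genes shared over 20% of their stretches, namely these 4 with *Pdhb* (30.3%), *Pfkfb2* (25%), *Gpi1* (24.5%), *Pkm* (23.7%) and *Ldhb* (21%). Their values are uncertain to that extent, and the recorded reads of *Gapdh* in particular need not cover all of its transcripts. Another 11 genes shared none, among them *Hk2*, *Aldoc*, *Eno3*, *Pdk1*, *Pdk2* and *Pdk3*. *Pfkp* shared 15.4% of its stretches with 1 gene, *Pitrm1*, and *Pfkl* shared 0.0532%.

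**Figure D1:**
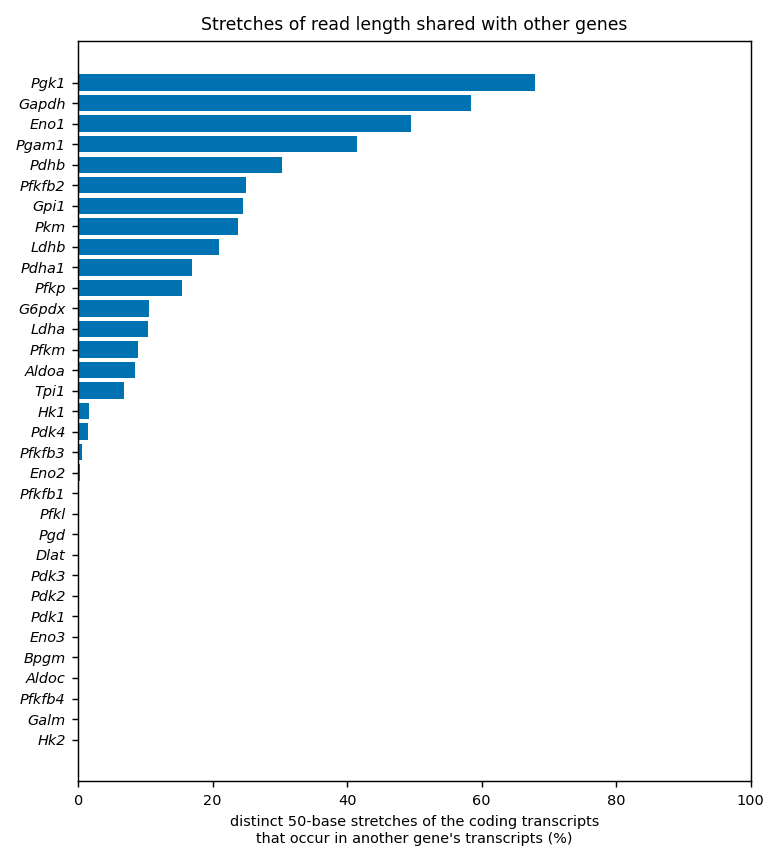
Bars show, for each of the 33 genes, the percentage of distinct 50-base stretches of its coding transcripts that also occur in transcripts of another gene. *Pgk1* (68%) and *Gapdh* (58.4%) are the highest and 11 genes are at 0.

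The 33 genes did not move as 1 block, and at 48 h their split between directions was near that of all genes tested. At 48 h 14 of the 33 genes were higher and 12 lower than at 0 h at FDR < 0.1 (background 36.1% and 37.3%). At 96 h 11 were higher and 18 lower (background 38% and 38.5%). *Pfkl*, *Pdk2*, *Pgk1* and *Tpi1* had the largest rises at 48 h. Of the genes above 3 reads at 96 h, *Pfkp*, *Ldhb* and *Aldoc* had the largest falls. *Pdk4* had a larger fitted fall, but at 3 reads or fewer in each 96 h sample it gives no fold. *Eno2*, the enolase best known from neurons, instead passed through a peak at 4 to 16 h. *Pkm*, which encodes pyruvate kinase, passed FDR < 0.1 at no time point against 0 h in the fit with no term for the sets, with log2 fold changes between -0.16 and 0.27. That does not show a steady level, since at 96 h its sets lay on opposite sides of 0. Replicates 1 and 2 went from 11006 and 10485 normalized counts at 0 h to 7483 and 6973 (-0.57). Replicates 3 and 4 went from 7235 and 7077 to 8276 and 8820.5 (0.26).

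Changes were also frequent among all genes, and the counts are to be read against that. At 48 h 36.1% of the 15227 genes tested were higher and 37.3% lower, and at 96 h 38% and 38.5%. Among the members the shares were 42.4% higher and 36.4% lower at 48 h, against 33.3% and 54.5% at 96 h. A total of 32 of the 33 were called at least once in the 7 comparisons with 0 h (95.7% of all genes), and 10 were called higher at 1 time and lower at another (27.3% of all genes). The median log2 fold change of the 33 was 0.27 at 48 h and -0.36 at 96 h, beside -0.02 and -0.03 over all genes tested. Together the 33 genes took a mean of 0.71% ± 0.0708 of the reads on genes at 0 h, 0.91% ± 0.108 at 48 h and 0.668% ± 0.0345 at 96 h (SD, n = 4). Between 0 and 96 h the replicate sets went opposite ways. The share fell from 0.786% and 0.753% to 0.646% and 0.633% in replicates 1 and 2. It rose from 0.645% and 0.654% to 0.687% and 0.707% in replicates 3 and 4.

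Earlier time points had fewer calls. At 2 h 7 were higher and 8 lower (background 22.2% and 22.6%), at 4 h 7 and 10 (24.7% and 23.8%), and at 8 h 3 and 10 (26.3% and 22.8%). At 16 h 9 were higher and 9 lower (28% and 25.3%), and at 24 h 12 and 11 (31.2% and 30.7%). The count of higher genes at 8 h differed by replicate set, at 5 within replicates 1 and 2 and 11 within replicates 3 and 4. It was 6 without 0 h replicate 1. The count of lower genes was 7 at 24 h without 24 h replicate 4. Against 2 h, with both groups in serum, 9 were higher and 19 lower at 96 h (37.6% and 39.4%). Between 48 and 96 h 4 were higher and 16 lower (27.3% and 27.2%), and the former count was 2 without 48 h replicate 3 or without 96 h replicate 2. No share over all genes is given for fits on part of the samples. Shifts of a count under such fits therefore cannot be read as particular to these genes.

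Changes of at least 4-fold were rarer. The number past it at FDR < 0.1 was 1 at each of 2 h (background 2.35%), 4 h (3.4%), 8 h (4.71%) and 16 h (6.42%). The count was 3 at 24 h (9.19%), 3 at 48 h (15.6%), 6 at 96 h (19.6%) and 6 between 2 and 96 h (19.6%). The 7 genes past it at least once against 0 h were *Aldoc*, *Eno2*, *Ldhb*, *Pdk2*, *Pdk4*, *Pfkl* and *Pfkp* (25.2% of all genes were past it at least once). Each of them has a paralogue among the 33 that did not pass it. *Pdk4* passed it at 96 h, with 3 reads or fewer in each 96 h sample, so its fold is not measurable.

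**Figure D2:**
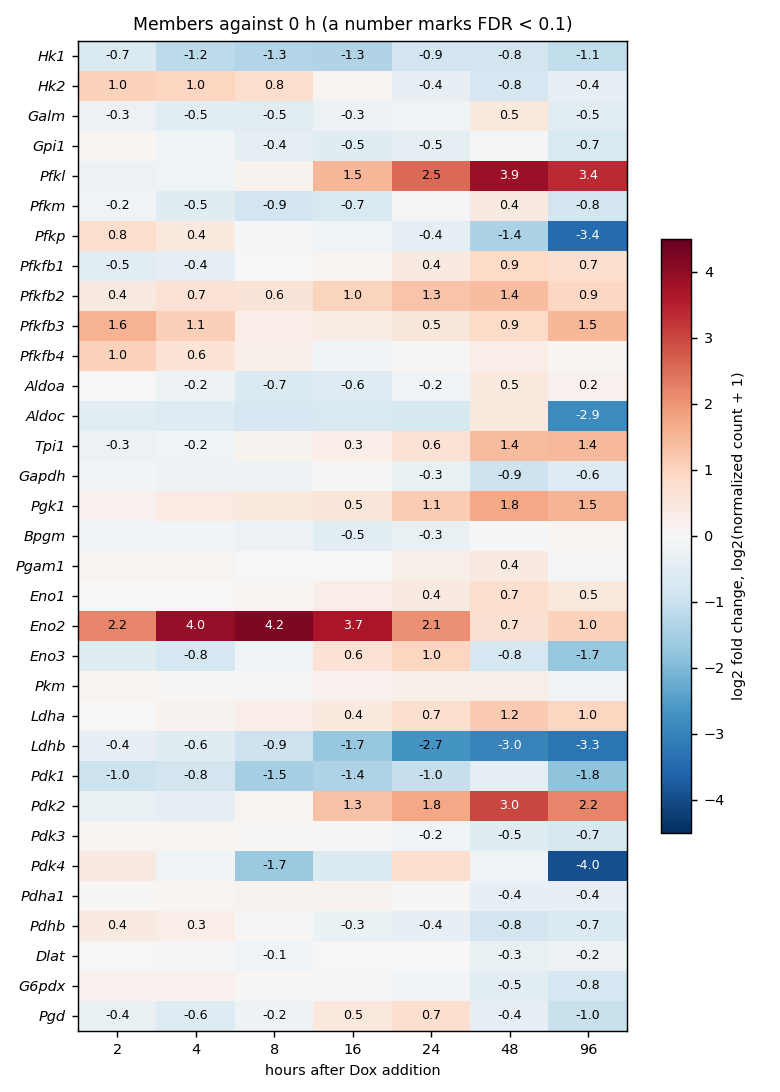
Colours show the log2 fold change against 0 h of each of the 33 genes (rows, in pathway order) at the 7 later time points (columns), from limma on log2(normalized count + 1), and a printed value marks FDR < 0.1. *Pfkl* reached 3.86 at 48 h and *Pfkp* -3.45 at 96 h, while *Eno2* was highest at 8 h (4.20).

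Among the entry steps, the 2 hexokinases moved apart within hours. *Hk2*, the inducible and growth-linked hexokinase, had 2418, 2327, 2209 and 2259 normalized counts in the 4 samples at 0 h and 4435, 4542, 4894 and 4845 at 2 h. All 2 h samples were above all 0 h samples, a log2 fold change of 1.02 (SE 0.09, limma adjusted p = 1.18e-10). It then fell below its starting level, to 1339.9, 1406, 1350.3 and 1309.7 at 48 h (log2 fold change -0.77, SE 0.09, limma adjusted p = 5.99e-09) and a mean of 1779.6 ± 277 at 96 h (SD, n = 4). *Hk1*, the constitutive hexokinase, was lower at every later time point. Its 0 h samples lay far apart by replicate set, at 596, 642, 1202 and 1320.2, and all were above the 96 h samples, at 378, 383, 443 and 442. The log2 fold change of *Hk1* at 96 h was -1.10 (SE 0.23, limma adjusted p = 9.81e-05), with -0.70 within replicates 1 and 2 and -1.51 within replicates 3 and 4.

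Neither *Galm*, which interconverts the 2 forms of glucose that enter the pathway, nor *Gpi1*, which turns glucose 6-phosphate into fructose 6-phosphate, changed by as much. *Galm* ranged over the time points from a mean of 136 at 8 h to 276 at 48 h, with a log2 fold change of -0.53 at the former and 0.49 at the latter. *Gpi1* was lower at 8, 16, 24 and 96 h, at which its log2 fold change was -0.69 (SE 0.07, limma adjusted p = 9.93e-10). At 48 h *Gpi1* was at -0.04 and not called, and it lay on opposite sides of 0 in the 2 replicate sets, at 0.19 within replicates 1 and 2 and -0.27 within replicates 3 and 4.

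The phosphofructokinases exchanged their main transcript. Phosphofructokinase is a tetramer whose subunits, named after liver (*Pfkl*, chr10:77986947-78010083, GRCm38), muscle (*Pfkm*, chr15:98092589-98132451) and platelet (*Pfkp*, chr13:6579768-6648777), come from separate genes. *Pfkl* had 686, 628, 445 and 440.1 normalized counts at 0 h and 513, 530.0, 386 and 376 at 2 h. It was at a mean of 1507 ± 77.1 at 16 h and 3127 ± 171 at 24 h. At 48 h the 4 samples were at 7183, 7349, 8521 and 8412 and at 96 h at 5203, 5045, 6157 and 5890.4. From 16 h on no sample overlapped the 0 h samples. The rise at 48 h was 14.3-fold by the means, a log2 fold change of 3.86 (SE 0.16, limma adjusted p = 4.51e-19), with 4.25 in replicates 3 and 4 alone and 3.47 in replicates 1 and 2 alone. At 2, 4 and 8 h *Pfkl* was not called, with log2 fold changes of -0.27, -0.18 and 0.16.

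*Pfkp* rose before it fell. It had 2247, 2461, 1959 and 2139.9 at 0 h and 3917, 3879, 3629 and 3717 at 2 h, with all 2 h samples the higher ones (log2 fold change 0.79, SE 0.16, limma adjusted p = 0.000253). It was back near the 0 h values at 8 h (-0.05, not called, with -0.21 within replicates 1 and 2 and 0.11 within replicates 3 and 4) and lower from 24 h on. The 24 h fall (log2 fold change -0.45, SE 0.16, limma adjusted p = 0.0194) lay mostly in 1 set, since the samples were at 2212, 2203, 1178 and 1162. It was -0.81 in replicates 3 and 4 alone and -0.09 in replicates 1 and 2 alone. The 48 h samples were at 929, 1023, 692 and 667 and the 96 h samples at 230.3, 245, 171 and 166, 9.22% of the 0 h mean. The log2 fold change at 96 h was -3.45 (SE 0.16, limma adjusted p = 5.23e-18) against 0 h and -4.23 (SE 0.16, limma adjusted p = 4.14e-20) against 2 h. *Pfkm* moved less, from 392, 416, 358 and 400.4 at 0 h to 211, 202, 236 and 208 at 8 h (-0.87), then 547, 535, 498 and 483 at 48 h (0.40), ending with 221, 227, 225 and 208 at 96 h (-0.83). These 3 differences of *Pfkm* passed FDR < 0.1.

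The ratio of *Pfkp* to *Pfkl* summarises the exchange. On a log2 scale it was 2.02 ± 0.24 at 0 h, 3.08 ± 0.22 at 2 h, then -3.27 ± 0.43 at 48 h and -4.79 ± 0.42 at 96 h (SD, n = 4). The difference between 96 h and 0 h was -6.81, with -6.26 within replicates 1 and 2 and -7.36 within replicates 3 and 4. With 4 samples against 4, a two-sided exact permutation test can give no p below 0.0286, which this difference reached (adjusted p = 0.0411 over 36 tests). Per kb of the longest coding transcript, *Pfkp* made up 65.3% ± 1.68 of the summed phosphofructokinase level at 0 h and 79.3% ± 1.02 at 2 h. At 96 h its share was 3.08% ± 0.849, while *Pfkl* went from 18% ± 2.63 at 0 h to 84.7% ± 2.9 at 48 h and 92.2% ± 1.33 at 96 h. The share of *Pfkm* fell from 16.8% ± 1.07 to 4.75% ± 0.488. Per kb of merged exons the share of *Pfkp* would be 45.2% at 0 h and 1.68% at 96 h instead, and that of *Pfkm* 32.4% and 7.24%.

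**Figure D3:**
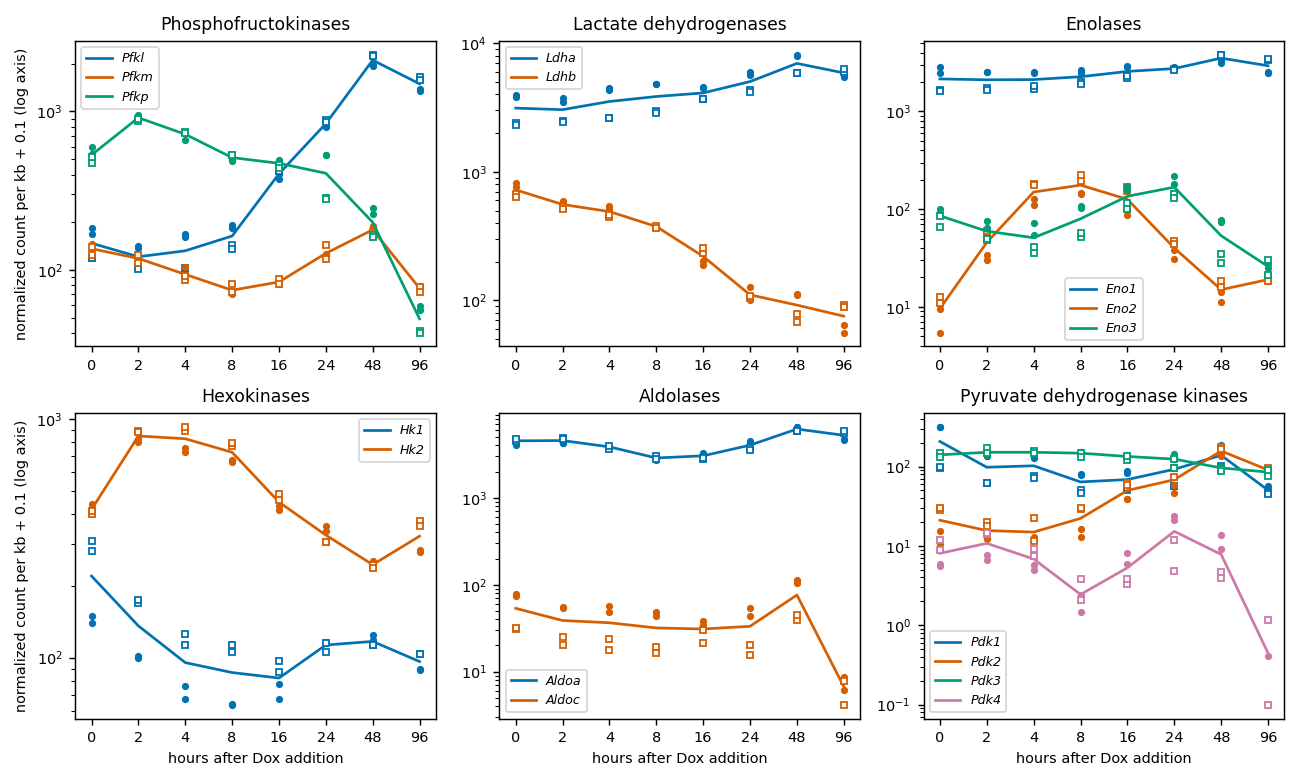
Points show the level of each paralogue in each of the 32 samples, in normalized counts per kb of the longest coding transcript plus 0.1 on a log axis, against hours after Dox addition, with filled circles for replicates 1 and 2 and open squares for replicates 3 and 4. Lines join the means of 4, and the lines of *Pfkl* and *Pfkp* cross between 16 and 24 h.

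The *Pfkfb* genes encode enzymes that make and break fructose 2,6-bisphosphate, the activator of phosphofructokinase. All 4 moved by less than 4-fold. *Pfkfb3*, whose enzyme mostly makes the activator, had 58, 72.7, 50.0 and 56.7 normalized counts at 0 h and 160.0, 186, 197 and 168 at 2 h, with no overlap (log2 fold change 1.58, SE 0.23, limma adjusted p = 2.11e-06). It came down to a mean of 72.8 ± 8.81 at 8 h and stood at 143, 153, 176 and 209 at 96 h (log2 fold change 1.50, SE 0.23, limma adjusted p = 9.33e-07). *Pfkfb4* rose at 2 h, from 51.1, 66.6, 55.6 and 68 to 90.4, 93.6, 168 and 162 (log2 fold change 1.03, SE 0.19, limma adjusted p = 6.32e-05), and after 4 h it was not called in either direction. *Pfkfb2* was higher at all 7 later time points, with log2 fold changes from 0.39 at 2 h to 1.37 at 48 h. *Pfkfb1* fell at 2 h (-0.48) and 4 h (-0.44) and was higher from 24 h on, by 0.88 at 48 h. The log2 ratio of *Pfkfb4* to *Pfkfb3* went from 0.03 ± 0.21 at 0 h to -1.40 ± 0.38 at 96 h (exact permutation test, p = 0.0286, adjusted p = 0.0411).

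Of the aldolases, which split the 6-carbon sugar, *Aldoa* is the main form of most cells and *Aldoc* is best known from brain. *Aldoc* had 215, 205, 85.4 and 88.8 normalized counts at 0 h and 295, 318, 110.0 and 124 at 48 h. At 96 h it had 17, 24.2, 21.3 and 11.3. The samples split by replicate set, so that 0 h and 48 h overlapped over all 4 (0.48, not called), while within each set both 48 h samples were above both 0 h samples (0.54 in replicates 1 and 2 and 0.42 in replicates 3 and 4). All 96 h samples were below all others, at a log2 fold change of -2.86 (SE 0.46, limma adjusted p = 2.09e-06). That fall was -3.31 within replicates 1 and 2 and -2.41 within replicates 3 and 4. *Aldoa* was lower from 4 to 24 h, with a log2 fold change of -0.65 at 8 h and, at 24 h, 0.01 within replicates 1 and 2 and -0.35 within replicates 3 and 4. It was higher at 48 h (log2 fold change 0.45, SE 0.08, limma adjusted p = 1.5e-05). Per kb, *Aldoc* was 1.18% ± 0.596 of the aldolase sum at 0 h and 0.129% ± 0.0475 at 96 h. Per kb of merged exons the 2 shares would be 1.88% and 0.208%.

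The enzymes of the steps that follow aldolase did not share a direction. *Tpi1*, which interconverts the 2 triose phosphates, had 2444, 2049, 1996 and 1942 at 0 h and 1823, 1624, 1787 and 1686 at 2 h, a small fall (log2 fold change -0.28, SE 0.08, limma adjusted p = 0.00832). It then rose to 6435, 6107, 5229.6 and 5104 at 48 h and 5711, 5505, 5749 and 5868 at 96 h, all above the 0 h samples (log2 fold change 1.44, SE 0.08, limma adjusted p = 8.74e-16). *Pgk1*, the first ATP-yielding step, rose from 1275, 1094, 734 and 712 to 4461, 4027, 2276 and 2330.3 at 48 h (log2 fold change 1.76, SE 0.23, limma adjusted p = 9.74e-08) and 2649.6, 2703, 2523 and 2749 at 96 h. *Gapdh*, which acts between them, fell by contrast from 280.2, 326, 272 and 338 to 142, 121, 192 and 195 at 48 h (log2 fold change -0.92, SE 0.16, limma adjusted p = 1.09e-05). Both *Pgk1* and *Gapdh* carry the limit on shared stretches given above, while *Tpi1* shared 6.83%. *Gapdh* is often used as a reference for quantitative PCR, and its recorded reads lay between 121 and 396 normalized counts over all 32 samples. *Bpgm*, which makes 2,3-bisphosphoglycerate, was lower at 16 h (-0.46) and 24 h (-0.34) and was called at no other time. *Pgam1*, a phosphoglycerate mutase, was called only at 48 h (0.41).

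*Eno2* had the largest fitted change from 0 h of the 33 genes, and most of it was transient. Enolase makes phosphoenolpyruvate, and *Eno1*, *Eno2* and *Eno3* are its general, neuronal and muscle forms. *Eno2* (chr6:124760053-124769673) had 26.2, 14.9, 34.7 and 30.2 normalized counts at 0 h and 83.1, 94.4, 163 and 168 at 2 h. It had 310.4, 359, 505 and 498 at 4 h and 398, 407, 544 and 617 at 8 h, all far above the 0 h samples. By 48 h it was at 31.1, 39.6, 44 and 51.6 and at 96 h at 50.9, 51.5, 57.7 and 51.1, above all 0 h samples except for 48 h replicate 1, which was below 0 h replicate 3. The log2 fold change was 2.21 (SE 0.25, limma adjusted p = 2.73e-08) at 2 h and 4.20 (SE 0.25, limma adjusted p = 1.73e-14) at 8 h, or 18.5-fold by the means. Without 0 h replicate 2, whose level was the lowest of the 4, *Eno2* was no longer past 4-fold at 2 h. At 96 h the log2 fold change was 1.03 against 0 h and -1.18 against 2 h, the latter with -0.78 within replicates 1 and 2 and -1.59 within replicates 3 and 4.

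*Eno1* moved less, with 5743, 5061, 3382 and 3266 at 0 h, then 5406, 5003, 4096 and 3879 at 8 h, rising to 6329, 6768, 7737 and 7673 at 48 h (log2 fold change 0.75, SE 0.17, limma adjusted p = 0.000302). The log2 fold change at 48 h was 1.21 in replicates 3 and 4 alone and 0.28 in replicates 1 and 2 alone. At 96 h the 2 sets disagreed in sign, at -0.10 within replicates 1 and 2 and 1.05 within replicates 3 and 4. *Eno3* fell at 4 h (-0.78), rose to a mean of 262 ± 61.1 at 24 h (log2 fold change 0.96, SE 0.28, limma adjusted p = 0.00497) and then fell from 156, 143, 103 and 132 at 0 h to 42.4, 38.9, 32.6 and 47.3 at 96 h (log2 fold change -1.70, SE 0.28, limma adjusted p = 3.83e-06). Per kb, *Eno2* was 0.467% ± 0.243 of the enolase sum at 0 h, 7.23% ± 2.51 at 8 h and 0.412% ± 0.0554 at 48 h. *Eno1* thus made up most of the sum throughout (89.7 to 98.5% by the means). Per kb of merged exons *Eno2* would be 10.5% at 8 h and 0.635% at 48 h, and *Eno1* 82.7% at 8 h. The log2 ratio of *Eno2* to *Eno1* rose between 0 and 2 h from -7.33 ± 0.83 to -5.10 ± 0.85 (exact permutation test, p = 0.0286, adjusted p = 0.0411). At 48 h it was -7.41 ± 0.18, but the replicate sets lay on opposite sides of their 0 h values, by 0.51 in replicates 1 and 2 and -0.67 in replicates 3 and 4. The pooled difference from 0 h was -0.08 and did not pass the test, which does not show a return to the 0 h ratio (exact permutation test, p = 0.914, adjusted p = 0.94).

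**Figure D4:**
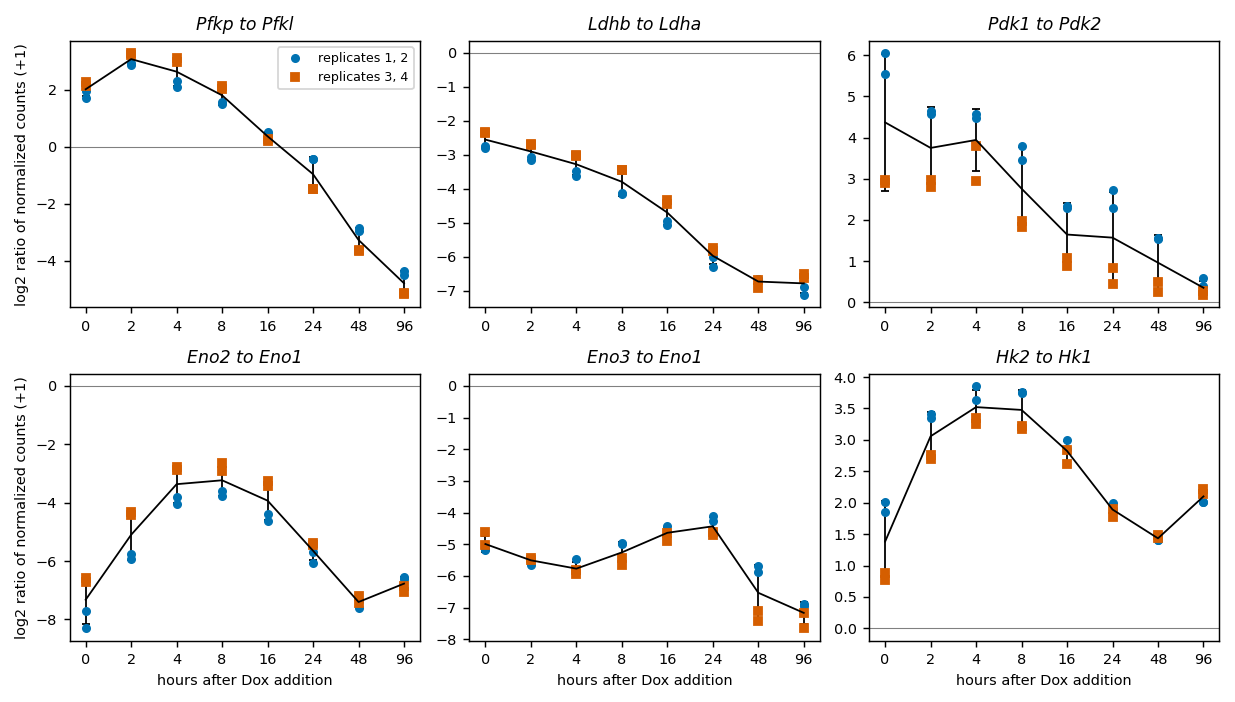
Points show the log2 ratio of normalized counts (each + 1) for 6 pairs of paralogues in each of the 32 samples against hours after Dox addition, with blue circles for replicates 1 and 2, orange squares for replicates 3 and 4, and lines and bars for the mean and SD of 4. The ratio of *Pfkp* to *Pfkl* went from 2.02 at 0 h to -4.79 at 96 h, and that of *Ldhb* to *Ldha* from -2.55 to -6.78.

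Lactate dehydrogenase is built from A and B subunits, of which the A form is associated with making lactate and the B form with using it. *Ldhb* (chr6:142490249-142507957) was lower than at 0 h at every later time point. It had 1075, 1002, 869 and 829 normalized counts at 0 h, 773, 761, 696 and 676 at 2 h, falling to 498, 487, 493 and 479 at 8 h. It had 167, 131, 136 and 142 at 24 h, 145, 143, 88.8 and 102 at 48 h, reaching 73.2, 84.1, 119 and 116 at 96 h. No sample from 2 h on reached the lowest 0 h sample. The log2 fold change was -0.37 (SE 0.14, limma adjusted p = 0.0395) at 2 h, -2.70 (SE 0.14, limma adjusted p = 4.46e-16) at 24 h and -3.27 (SE 0.14, limma adjusted p = 8.53e-19) at 96 h, at which 10.4% of the 0 h level was left. From 2 to 96 h its log2 fold change was -2.90.

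*Ldha* (chr7:46841475-46855627) went the other way and more slowly, from 7229.6, 6929, 4340.3 and 4212 at 0 h to 14793, 14449, 10734 and 10575 at 48 h and 10374, 9953, 10903 and 11424 at 96 h. It was called higher from 16 h on, with a log2 fold change of 1.18 (SE 0.21, limma adjusted p = 9.91e-06) at 48 h. The log2 ratio of *Ldhb* to *Ldha* was -2.55 ± 0.25 at 0 h and -6.78 ± 0.28 at 96 h, a difference of -4.23 that was nearly the same in both replicate sets (-4.23 and -4.22; exact permutation test, p = 0.0286, adjusted p = 0.0411). Per kb, *Ldhb* made up 19.3% ± 2.72 of the lactate dehydrogenase sum at 0 h and 1.26% ± 0.237 at 96 h, and 26.6% and 1.89% per kb of merged exons.

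The pyruvate dehydrogenase kinases, each of which inactivates the complex by phosphorylation, changed in opposite directions. *Pdk2* (chr11:95026258-95041354), a widely expressed form, had 23.5, 34, 62.9 and 68 normalized counts at 0 h and 28.1, 27.2, 44.6 and 39.4 at 2 h. It then rose to 305, 334, 399 and 372 at 48 h and 208, 198, 212 and 195 at 96 h, above every 0 h sample. The log2 fold change was 3.0 (SE 0.29, limma adjusted p = 1.74e-10) at 48 h, with 3.45 within replicates 1 and 2 and 2.54 within replicates 3 and 4. *Pdk1*, a form induced by low oxygen, had 1630.0, 1644, 497 and 514 at 0 h, so that replicates 1 and 2 were well above replicates 3 and 4. It had 412, 411, 261 and 240.2 at 8 h, 892, 979.8, 478 and 523 at 48 h, ending with 273, 296, 238 and 235 at 96 h. The 96 h samples were below all 0 h samples (log2 fold change -1.81, SE 0.37, limma adjusted p = 8.2e-05), with -1.09 in replicates 3 and 4 alone and -2.52 in replicates 1 and 2 alone. At 48 h *Pdk1* was not called (-0.41).

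*Pdk4*, the kinase best known from fasting and from muscle and heart, was close to the limit of counting. It had 19.3, 20.4, 41.1 and 30.2 normalized counts at 0 h and 4.71, 8.04, 7.0 and 12.9 at 8 h (log2 fold change -1.66, SE 0.48, limma adjusted p = 0.00589). It had 81.7, 72.6, 16.2 and 40.8 at 24 h and 31.1, 47.1, 15.8 and 13.4 at 48 h. At 96 h it had 1.06, 0, 3.77 and 0, that is at most 3 reads in any sample and none in 2 of the 4. The highest 96 h sample was below the lowest sample of every other time point, which was 4.71 at 8 h. The fitted log2 fold change at 96 h, -3.96 with a pseudocount of 1 and -2.39 with a pseudocount of 5, depends on that choice and gives no fold. *Pdk3* was steadier, with means from 179.6 to 319, and was lower from 24 h on (log2 fold change -0.72, SE 0.10, limma adjusted p = 8.52e-08 at 96 h).

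The log2 ratio of *Pdk1* to *Pdk2* fell from 4.37 ± 1.67 at 0 h to 0.96 ± 0.68 at 48 h and 0.35 ± 0.18 at 96 h. The difference at 96 h was -4.02, with -5.32 within replicates 1 and 2 and -2.71 within replicates 3 and 4 (exact permutation test, p = 0.0286, adjusted p = 0.0411). Its size therefore rested on the set, and its direction did not. Per kb, *Pdk1* was 50.9% ± 18.3 of the kinase sum at 0 h and 22.2% ± 2.12 at 96 h. *Pdk2* went from 6.6% ± 4.55 to 40.1% ± 2.17, and *Pdk3* from 40.1% ± 12.4 to 37.6% ± 2.57.

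**Figure D5:**
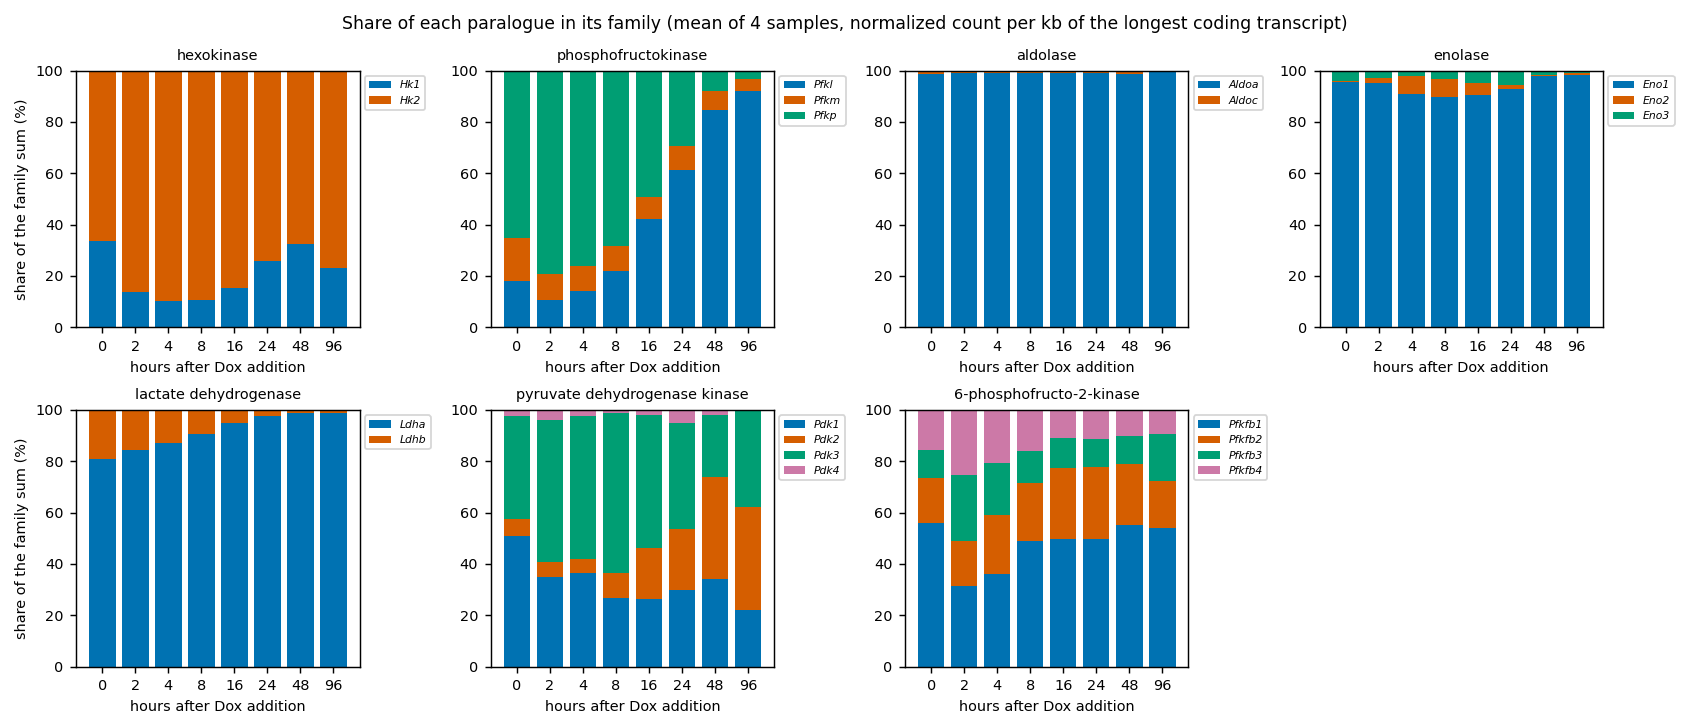
Stacked bars show the mean share (%, n = 4) of each paralogue in the summed level of its family, in normalized counts per kb of the longest coding transcript, at the 8 time points. *Pfkl* went from 18 to 92.2% of the phosphofructokinases, and *Pdk2* from 6.6 to 40.1% of the pyruvate dehydrogenase kinases.

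The subunits of the complex that the kinases act on moved less. *Pdha1* and *Pdhb* encode the 2 chains of its first enzyme and *Dlat* the acetyl-transferring core. *Pdhb* rose at 2 h, from 1599.7, 1336, 1318 and 1320.2 to 1877, 1875, 1830.1 and 1809 (log2 fold change 0.41, SE 0.07, limma adjusted p = 1.14e-05), and was lower at 48 h, at 804, 855, 739 and 756 (log2 fold change -0.82, SE 0.07, limma adjusted p = 4.6e-12). All 3 were lower at 48 and 96 h, with log2 fold changes at 96 h of -0.36 for *Pdha1*, -0.66 for *Pdhb* and -0.25 for *Dlat*. Up to 24 h *Pdha1* was not called, at 0.05 to 0.17, and *Dlat* was called only at 8 h (-0.14).

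*G6pdx* and *Pgd* encode the 2 dehydrogenases of the pentose phosphate branch, which yield NADPH. *G6pdx* was lower at 48 h (-0.47) and 96 h (log2 fold change -0.77, SE 0.11, limma adjusted p = 5.01e-07) and was called at no earlier time. *Pgd* moved in both directions. It had 3515, 3213, 3832 and 3891 normalized counts at 0 h and a mean of 2388 ± 103 at 4 h (-0.59), then rose to 5656, 5787, 6147 and 5953 at 24 h, all above the 0 h samples (log2 fold change 0.71, SE 0.07, limma adjusted p = 2.18e-10). By 96 h it had dropped to 1908, 1934, 1683 and 1673, all below them (log2 fold change -1.0, SE 0.07, limma adjusted p = 2.23e-14). *Pgd* was thus higher at 16 and 24 h and lower at the other 5 time points.

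Over all paralogue pairs, 36 exact tests covered 9 log2 ratios in 4 comparisons (2, 48 and 96 h with 0 h, and 96 h with 2 h), and 26 passed an adjusted p of 0.1. At 2 h the ratios of *Hk2* to *Hk1*, *Pfkp* to *Pfkl* and *Eno2* to *Eno1* were higher and that of *Eno3* to *Eno1* lower, each at the smallest p the test allows. The ratio of *Hk2* to *Hk1* went from 1.38 ± 0.65 at 0 h to 3.06 ± 0.38 at 2 h and 2.1 ± 0.1 at 96 h. Its difference between 96 and 0 h was 0.72 (exact permutation test, p = 0.0571, adjusted p = 0.0791), but 0.08 within replicates 1 and 2 and 1.36 within replicates 3 and 4, and it lost the call with a pseudocount of 5. Those of *Pfkm* to *Pfkl* and *Aldoc* to *Aldoa* at 96 h differed from 0 h by -4.19 and -3.07.

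Other genes of the pathway, taken as lists by function, give the setting. Over all genes tested, 36.1% were higher and 37.3% lower at 48 h, and 38% and 38.5% at 96 h. The counts of each list are to be read beside these shares. Of the glucose and lactate transporters, 5 of 7 tested were higher and 1 lower at 48 h (median 1.89), and 5 and 2 at 96 h (median 1.49). *Slc16a1*, which carries lactate and pyruvate, went from a mean of 932 at 0 h to 5804 at 48 h (log2 fold change 2.68, SE 0.15, limma adjusted p = 7.84e-16), and *Slc16a3*, which exports lactate, from 39.1 to 679.9 (log2 fold change 4.15, SE 0.42, limma adjusted p = 3.84e-10). The glucose transporter gene *Slc2a1* went from 813 to 3302, a log2 fold change of 2.03.

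Of the glycolysis paralogues outside the 33, 4 of 9 tested were higher and 4 lower at 48 h (median 0.34, background 36.1% and 37.3%). At 96 h 3 were higher and 4 lower (median -0.14, background 38% and 38.5%). *Hkdc1*, a hexokinase-like gene, had at most 3 reads in any 0 h sample and means of 54.9 normalized counts at 24 h, 793 at 48 h and 2312 at 96 h. *Pgam2*, the muscle phosphoglycerate mutase, passed through 169 at 16 h from 14.4 at 0 h and was at 5.08 at 96 h. *Pklr*, the liver pyruvate kinase, stayed low, with a mean of 1.26 at 0 h and 23.9 at 48 h. *Ldhc* and *Ldhd*, 2 further lactate dehydrogenases, fell to 5.06 and 0.579 at 96 h from 33.1 and 18.2, and *Eno4* was at 19.5 at 0 h and 5.25 at 4 h.

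Among genes of gluconeogenesis, 3 of 5 tested were higher and 1 lower at 48 h (median 1.77, background 36.1% and 37.3%). At 96 h 2 were higher and 2 lower (median 0.43, background 38% and 38.5%). The 2 fructose bisphosphatases, which oppose phosphofructokinase, peaked between. *Fbp2* went from a mean of 44.6 at 0 h to 2056 at 24 h (log2 fold change 5.73, SE 0.52, limma adjusted p = 1.01e-10) and 50.7 at 96 h, and *Fbp1* from 6.48 to 121 at 16 h (log2 fold change 4.06, SE 0.43, limma adjusted p = 3.62e-09) and no reads in any 96 h sample. *Slc37a4*, a glucose 6-phosphate transporter, was at 77 and 344 at 0 and 48 h. *Pck2*, the mitochondrial phosphoenolpyruvate carboxykinase, fell from 1025 to 98.7 at 96 h (log2 fold change -3.35, SE 0.20, limma adjusted p = 9.89e-16).

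Of the other genes of pyruvate entry and pyruvate dehydrogenase, 0 of 8 tested were higher and 2 lower at 48 h (median -0.19, background 36.1% and 37.3%). At 96 h 3 were higher and 3 lower (median -0.03, background 38% and 38.5%). With limma, 0 were higher at 48 h at an unadjusted p below 0.05. *Pdp2*, a phosphatase that reverses the kinases, fell from a mean of 565 at 0 h to 133 at 96 h (log2 fold change -2.06, SE 0.31, limma adjusted p = 8.5e-07). In the citric acid cycle, 4 of 15 tested were higher and 6 lower at 48 h (median 0.01), and 7 and 3 at 96 h (median 0.09), with none past 4-fold. For the rest of the pentose phosphate branch, 2 of 8 tested were higher and 5 lower at 48 h (median -0.34), and 3 and 5 at 96 h (median -0.49), and *Tktl1* was at 6.94 at 0 h and 0.236 at 96 h.

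Several of the hypoxia response genes are known to be induced with glycolytic enzymes at low oxygen. Of the hypoxia response genes, 13 of 18 tested were higher and 2 lower at 48 h (median 1.27, background 36.1% and 37.3%). At 96 h 13 were higher and 2 lower (median 1.30, background 38% and 38.5%). The median over all genes tested was -0.02 at 48 h and -0.03 at 96 h. The labels name no change of oxygen. *P4ha2* and *P4ha1*, subunits of collagen prolyl hydroxylase, led the rise, from means of 22.8 and 125 at 0 h to 8420.1 and 12670.1 at 96 h. *Bnip3*, a mitophagy gene, was at 14.6 and 340.3 at 0 and 48 h. *Epas1* fell to 45.7 at 24 h from 488 at 0 h and stood at 5858 at 96 h, and *Ndrg1* fell to 15.3 at 8 h from 78.7. For the glucose sensing genes, 2 of 5 tested were higher and 1 lower at 48 h (median 0.11), and 3 and 2 at 96 h (median 0.89), with *Mlxipl*, a glucose-responsive transcription factor, at 23.7 at 0 h and 2.5 at 96 h. On that list the replicate sets of *Mlxipl* disagreed at 48 h, at 0.09 and -2.32.

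Promoter sequences were looked up for the same genes. RefSeq promoters on GRCm38.p6, from 250 bases before to 50 after each start, were found for 32 of the 33 genes (52 promoters), and *Galm* had no entry. The 250 bases before the start were searched. The letters ACGTG, the core of the hypoxia response element, occurred on either strand in at least 1 promoter of 12 of the 32 genes (37.5%), beside 18.5% of all 27025 genes. The 32 have more promoters per gene than the rest, and by promoter it was 16 of 52 (30.8%) beside 16.6% of all promoters. The palindrome CACGTG, the E-box, which itself holds ACGTG on both strands, occurred in 5 genes (15.6%, beside 6.86% of all genes) and 5 promoters (9.62%, beside 6.02%). AGATAA, a site of GATA factors, occurred in 4 genes (12.5%, beside 11.4%) and 7 promoters (13.5%, beside 9.99%). A match is a description of these windows and says nothing of binding.

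Windows are printed for 4 genes that were higher at 48 or 96 h, *Ldha*, *Pgk1*, *Pdk2* and *Pfkfb3*. That of *Hk2*, which was higher at 2 h and lower at 48 h, is printed too. They show how the matches lie, and were chosen after the matches were seen. The other matched genes were *Aldoa*, *Pdhb*, *Pdk3*, *Pfkfb2*, *Pfkm*, *Pgam1* and *Pkm*. Of these, *Aldoa*, *Pfkfb2* and *Pgam1* were higher at 48 h, and *Pdhb* and *Pdk3* lower at 48 and 96 h. *Pfkm* was higher at 48 h and lower at 96 h, and *Pkm* was called at neither. The windows are the stretches upstream of the start that hold the matches, with 15 bases on either side. They are read 5′ to 3′ on the strand of the gene, with ACGTG, its reverse complement CACGT and CACGTG in capitals. *Ldha* held them at 3 places, 2 of which were the whole E-box.
Ldha chr7:46845644-46845789 (+ strand): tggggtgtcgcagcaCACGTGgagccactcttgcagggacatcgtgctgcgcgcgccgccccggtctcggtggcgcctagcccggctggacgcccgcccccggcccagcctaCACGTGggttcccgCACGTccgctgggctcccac
Pgk1 chrX:106186935-106186988 (+ strand): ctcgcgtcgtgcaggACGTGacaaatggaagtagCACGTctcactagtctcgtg
Hk2 chr6:82774487-82774695 (- strand): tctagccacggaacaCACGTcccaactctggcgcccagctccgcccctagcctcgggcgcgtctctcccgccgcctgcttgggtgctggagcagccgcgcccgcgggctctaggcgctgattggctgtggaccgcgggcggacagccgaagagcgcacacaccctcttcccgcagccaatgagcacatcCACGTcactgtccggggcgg
Pdk2 chr11:95041477-95041512 (- strand): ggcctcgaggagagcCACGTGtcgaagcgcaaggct
Pfkfb3 chr2:11553970-11554004 (- strand): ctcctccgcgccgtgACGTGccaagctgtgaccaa
Pfkfb3 chr2:11502123-11502158 (- strand): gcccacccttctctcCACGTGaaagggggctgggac

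*Pfkl*, with the largest lasting rise of the 33, held none of the 3 motifs in its promoter, and neither did *Eno2*, *Ldhb* or *Pfkp*. That says only that these letters are not in those windows.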

How the data were processed

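RNA was measured in 32 samples, 8 time points with 4 replicates each, grouped by the sample titles. Per the study's methods, the libraries were polyA-selected and stranded, with single 50-base reads that the authors trimmed with cutadapt 2.7, aligned to GRCm38.p6 with HISAT2 2.1.0 and counted per gene with featureCounts (Subread 1.6.4). The authors deposited 1 table of log2 values, made from the counts with the size factors of DESeq2 and its variance stabilizing transformation. The strand setting and the treatment of reads with several matches are not given in the sources used here.

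The transformation was inverted to normalized counts and whole reads, and 100% of the values came out whole within 0.01 reads. The 15227 rows that reached a normalized count of 10 in 4 or more samples entered the tests, which were run on log2(normalized count + 1) in R 4.3.3 with limma 3.58.1 (lmFit, contrasts, eBayes with a trend, two-sided, over all 32 samples), with Benjamini-Hochberg adjustment per comparison over all genes tested. A fold change on this scale understates the change of low genes. Calls needed FDR < 0.1, and 4-fold calls also an absolute log2 fold change of 2 or more, the thresholds of the study's methods. Ratios of paralogues, differences of log2(normalized count + 1), were tested for a difference in means by exact permutation, two-sided, in scipy 1.17.1 under Python 3.11.15, with numpy 2.4.6, pandas 2.3.3 and, for figures, matplotlib 3.10.9. Genes at 3 reads or fewer were treated as not measurable, a floor that covers counting error alone, since no removal of PCR copies is described for these libraries.

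Tested on simulated data for 48 h against 0 h with 15227 genes, the procedure called 97 of 100 genes changed by 1 on the log2 scale, 100 of 100 changed by 2.5, and 35 of 15027 unchanged ones. The simulated samples were independent, without replicate sets and with the same dispersion for every gene. The changed genes were drawn above a floor on the mean count. These rates therefore check the procedure and need not hold for the real samples, which split by set. Coordinates and transcripts are from the GENCODE annotation on GRCm38, and promoters from RefSeq on GRCm38.p6. The 33 genes and the gene lists were chosen with earlier results of these data known. Genes past 4-fold at least once against 0 h and members of the paralogue pairs are given by sample, the other members by ranges and counts. From each list, members past 4-fold at least once are named, at most 3 with the largest rises and 3 with the largest falls.

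Alternatives were other pseudocounts, no or a stricter filter, TMM scaling, the deposited log2 values, limma-voom on the whole reads, the replicate number or set as a block, the 2 time points alone, each replicate set alone, and leaving out each replicate. Leaving out each single library, the comparison of 96 h with 48 h under these settings, a pseudocount of 5 for the ratios and merged exon length for the shares were added after seeing the data.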

Additional observations from a re-analysis of the deposited data

Results flagged for a closer look

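In 264 groups of 4 samples (33 genes at 8 time points), 10 single samples stood far from the other 3 by Dixon's test at the 95% level. Chance flags about 1 in 20 groups, which would be 13.2 here, so the number itself is not a pattern. Below its group were *Gpi1* at 16 h, replicate 4, with 2838 normalized counts (the others at 3000.1 to 3002), *Pfkp* at 4 h, replicate 2, with 2752 (3034 to 3075), *Pfkfb1* at 8 h, replicate 4, with 107 (115 to 117), and *Bpgm* at 0 h, replicate 3, with 181 (215 to 220.1). Above it was *Pdk2* at 4 h, replicate 3, with 50.5 (26.0 to 29.1). So were *Pdhb* at 0 h, replicate 1, with 1599.7 (1318 to 1336), and *Dlat* at 4 h, replicate 1, with 689 (650.1 to 656). *Pfkfb1* at 2 h, replicate 3, had 95 (79.3 to 80.0), *Pfkfb2* at 96 h, replicate 3, 185 (151 to 156), and *Eno2* at 96 h, replicate 3, 57.7 (50.9 to 51.5).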

How the results depend on the processing

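The clearest moves in the counts of genes called came with the replicate sets or with samples left out. Most other counts stayed close to those with all samples. The background shares above are from the fit with all samples and no term for the sets. None is given for the alternatives, so a shift in count cannot be read as particular to these genes. At 8 h the 3 higher genes became 7 with the replicate block, 7 with the set as a block, 5 within replicates 1 and 2 alone and 11 within replicates 3 and 4 alone. At 4 h the 7 higher genes became 12 within replicates 3 and 4 alone, and at 16 h the 1 gene past 4-fold became 2 within replicates 1 and 2 alone. Leaving out each replicate number gave 5 to 7 lower genes at 2 h (8 with all samples), 3 to 5 higher genes at 8 h (3), 6 to 10 lower genes at 24 h (11) and 2 to 3 higher genes at 96 h against 48 h (4), with 6 to 9 higher at 16 h (9) and 11 to 18 lower at 96 h against 48 h (16), and 2 to 3 past 4-fold at 24 h (3). Leaving out single libraries gave 0 to 1 past 4-fold at 2 h (0 without 0 h replicate 2), 3 to 6 higher at 8 h (6 without 0 h replicate 1), 7 to 11 lower at 24 h (7 without 24 h replicate 4) and 2 to 4 higher at 96 h against 48 h (2 without 48 h replicate 3 or 96 h replicate 2).

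A turn of direction was counted only where the fold change passed FDR < 0.1 in the fit with no term for the sets or under the alternative. By that rule 13 of 297 fold changes turned within 1 set, and under no other alternative run. Within replicates 1 and 2 these were *Aldoa* at 24 h (0.012), *Gpi1* at 48 h (0.19), *Pdk4* at 48 h (0.91), *Eno1* at 96 h (-0.10 against 0 h, -0.020 against 2 h) and *Tpi1* at 96 h against 48 h (-0.16). Within replicates 3 and 4 they were *Eno1* at 4 h (0.091), *Pfkp* at 8 h (0.11), *Pkm* at 96 h (0.26 against 0 h, 0.11 against 2 h) and, at 96 h against 48 h, *Gapdh* (-0.10), *Pgk1* (0.19) and *Ldhb* (0.30). The cause was not tested.

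With the number over all genes not given here, the replicate block added 31 calls and lost 0 over the 297 fold changes. Among those added were *Pkm* at 24 and 48 h, *Aldoc* at each time point from 2 to 48 h, *G6pdx* at 2 and 4 h, *Pgam1* at 4 and 24 h, *Pdha1* at 8 and 16 h, *Bpgm* and *Ldha* at 8 h, and *Pdk1* and *Pfkfb4* at 48 h. Deviations from the time point means correlated between samples that shared a replicate number (mean 0.196, from -0.0428 to 0.480 over 112 pairs) no more than between the different numbers within a set (0.196). The pairing by number therefore goes no further than the set. Across sets the mean was -0.196. The deviations at a time point sum to 0 for each gene, so that value largely follows from the means within sets and is no separate result. TMM scaling, whose factors were 0.988 to 1.01 times the deposited ones, lost 2 calls and added 2, no filter lost 13, and limma-voom lost 3 and added 1. The ratio of *Hk2* to *Hk1* at 96 h lost its call with a pseudocount of 5 (exact permutation test, adjusted p = 0.114). A paired sign-flip test of 4 pairs cannot go below an exact p of 0.125. Depth limits *Pdk4*, at 3 reads or fewer in each 96 h sample.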
